A study of Schizosaccharomyces pombe with 97 samples.

Results

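The hht2Δ strain of the fission yeast Schizosaccharomyces pombe lacks 1 of its 3 genes for histone H3, and its RNA was measured here in growing cells. The comparison took the 3 hht2Δ and the 3 wild-type (smt0) RNA sequencing libraries of the T0 time point, 6 of the 81 libraries of the series, by their labels alone. Cells grew in PMG medium with nitrogen (PMG+N) at 30 °C with shaking, and A, B and C name the biological triplicates of a strain. The wild type is a prototroph of the M mating type with the smt0 deletion at mat1, which stops mating-type switching. The hht2Δ strain came from the genome-wide deletion collection, in which the kanMX4 cassette replaces the gene, and was crossed to an smt0 strain to give a prototroph of the same mating type. It is 1 strain, so the deletion cannot be told apart from anything else that strain carries. Growing cells of 4 other single deletions from the same batch, made in the same way, served as a second reference. These were pht1Δ (histone variant H2A.Z), iec1Δ (a subunit of the Ino80 chromatin remodeller), asp1Δ (an inositol pyrophosphate kinase) and arp42Δ (an actin-related protein of chromatin remodellers), with 3 libraries each. The same flasks gave the T1D libraries after 1 day without nitrogen, and hht2Δ and smt0 were also sequenced after 1 week (T1W) and 2 weeks (T2W).

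Histone H3 and H4 form the tetramer at the centre of the nucleosome, and H2A and H2B complete it. Fission yeast makes H3 from hht1, hht2 and hht3, each of which lies head to head with an H4 gene, hhf1, hhf2 or hhf3, so that both genes of a pair share 1 promoter. Of the H3 genes, hht1 and hht3 are transcribed in S phase, when new DNA has to be packaged, whereas hht2 is transcribed throughout the cell cycle. Histone genes carry a short repeat, the AACCCT box, in these shared promoters. H3 tails carry the methyl marks of heterochromatin, which silences the chromosome ends and the mating-type cassettes, and marks set over transcribed genes that hold down transcription starting within them or on the opposite strand.

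The 2 stretches between divergent H3 and H4 genes printed here show what the deleted gene shared with its H4 partner, beside the same stretch of the pair with the most abundant H3 RNA. They run between the start codons on the plus strand of the RefSeq assembly ASM294v3, from chrII:1364985-1365118 for hhf2 and hht2 and from chrI:4699600-4699731 for hhf1 and hht1. Capitals mark the AACCCT box, which appears as AGGGTT when it lies on the other strand.
hhf2 to hht2: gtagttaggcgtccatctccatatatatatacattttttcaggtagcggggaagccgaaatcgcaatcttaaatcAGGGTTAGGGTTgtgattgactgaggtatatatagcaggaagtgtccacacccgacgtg
hhf1 to hht1: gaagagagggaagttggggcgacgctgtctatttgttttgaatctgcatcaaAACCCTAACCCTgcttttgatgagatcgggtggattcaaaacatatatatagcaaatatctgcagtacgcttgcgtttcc
Each stretch held 2 boxes next to each other. The 201 bases between hht3 and hhf3 and the 177 bases between hta1 and htb1 also held 2 each. Of 12605 windows of 134 bases before genes of either strand, 553 (4.39%) held AACCCT on at least 1 strand. No other motif was searched.

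Whether reads of the 3 H3 genes can be told apart matters for everything that follows, so the coding sequences were compared as well. All 3 coding sequences are 411 bases long and encode the same protein. The sequences of hht1 and hht2 differ at 46 bases (88.8% identity), those of hht2 and hht3 at 48 (88.3%) and those of hht1 and hht3 at 30 (92.7%). The longest stretch without a difference was 44, 26 and 47 bases for these pairs, shorter than the 58 cycles read from each end. Bases 289 to 348 of the coding sequence, where the genes differ at 16 positions (capitals), show the spacing of the differences.
hht1: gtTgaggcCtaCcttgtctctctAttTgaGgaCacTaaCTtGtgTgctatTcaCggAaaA
hht2: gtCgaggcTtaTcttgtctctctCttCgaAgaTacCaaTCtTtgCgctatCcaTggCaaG
hht3: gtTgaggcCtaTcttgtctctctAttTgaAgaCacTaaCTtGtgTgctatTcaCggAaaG

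The deleted gene was read in every library before any other comparison. Hht2 had 2007, 2679 and 1597 reads in smt0 A, B and C, and 329, 12 and 24 in hht2Δ A, B and C. The groups did not overlap, but hht2Δ A stood apart. Relative to the smt0 mean of library-scaled counts, hht2Δ A kept 22.1%, against 0.545% in B and 0.959% in C. The A libraries of the same strain also kept hht2 reads later, with 16.0% at T1D, 14.9% at T1W and 32.2% at T2W, and at T2W the C library kept 14.2%. Where these reads came from was not tested, and the main counts are therefore also given without hht2Δ A.

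Gene totals ran from 5232792 to 9068283 reads in the 6 libraries and totals of the ERCC spike-in, a set of control RNAs added per cell number, from 6442 to 13874. In 2 more libraries some values stood apart. Library smt0 A had low counts of stress and hexose genes that smt0 B and C shared at a higher level, with 2834 CPM summed over the hexose genes against 4484 and 4058. Library hht2Δ B had the highest share of reads on small nuclear and nucleolar RNAs (3.31% against 1.72 to 2.19% in the other 5), on ribosomal RNA (13.2% against 9.86 to 11.9%) and on the mitochondrial genome (17.3% against 13.3 to 15.1%). The part of these shares in the results was not tested, and values without each library are given beside them.

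The amount of yeast RNA per spike-in was lower in hht2Δ than in smt0. Reads on genes per ERCC read were 825, 899 and 928 in smt0 and 699, 626 and 635 in hht2Δ, and the groups did not overlap. The other deletions had 893, 734 and 679 (pht1Δ), 791, 796 and 803 (iec1Δ), 1110, 1119 and 1022 (asp1Δ) and 379, 607 and 299 (arp42Δ). The hht2Δ values lay within the range of those deletions. On the median gene, log2(ERCC-scaled CPM + 1), with CPM for counts scaled to a common library size, was 6.09 ± 0.10 (SD, n = 3) in smt0 and 5.72 ± 0.02 (SD, n = 3) in hht2Δ. The difference of -0.36 had P = 0.1 in a 2-sided exact permutation test, the smallest value that 3 against 3 libraries can give. In the spike-in scaled model of all 81 libraries the median log2 fold change of all tested genes was -0.32, so a gene at 0 on the relative scale used below, in which each library is scaled to its own gene counts, lay near -0.32 per spike-in.

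Counts of changed genes were taken on both scales. On the spike-in scale, edgeR's quasi-likelihood test with Benjamini-Hochberg adjustment over 6608 genes called 1 gene higher (0.0151%) and 6 lower (0.0908%) in hht2Δ at adjusted P below 0.05. Fitted on the 18 growing libraries of the first batch alone, that scale gave 53 higher and 621 lower. On the relative scale, fitted on the same 18 libraries, the same test called 352 of 6285 genes higher (5.6%) and 327 lower (5.2%). In 346 of the 352 and 310 of the 327 the 3 libraries of one strain all lay beyond the 3 of the other, which over all tested genes held for 1014 (16.1%) in the higher and 933 (14.8%) in the lower direction. The relative counts moved with single libraries, to 535 higher and 483 lower without hht2Δ A, 99 and 67 without hht2Δ B, 174 and 127 without hht2Δ C, 224 and 260 without smt0 A, 128 and 171 without smt0 B, and 111 and 103 without smt0 C. In all 6 of these fits 74 of the higher and 49 of the lower genes passed. Against the mean of the 4 other deletions 518 genes were higher (8.24%) and 381 lower (6.06%). All fold changes below are log2 values with their standard error on the relative scale, unless a sentence names the spike-in scale.

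The 6 genes lower on the spike-in scale were hht2 and 5 genes that included hsp16, a small heat shock protein, and cta3, a cation-transporting ATPase. On that scale hht2 was lower by a log2 fold change of -4.01 (edgeR's quasi-likelihood test, adjusted P = 0.00042). Hsp16 had 11.7, 249 and 246 CPM in smt0 A, B and C and 27.9, 22.7 and 21.0 in hht2Δ, and cta3 had 16.2, 493 and 477 against 47.3, 40.9 and 56.1. For both genes smt0 B and C lay far above every hht2Δ library, while smt0 A lay below all 3, so the groups overlapped. The noncoding RNA SPNCRNA.1224 overlapped in the same way, with 0.451, 16.1 and 14.9 CPM in smt0 and 0.527 to 0.881 in hht2Δ. SPAC5H10.01 had 25, 174 and 160 CPM in smt0 and 15.9, 13.7 and 19.0 in hht2Δ, and SPCC1739.08c, a predicted short chain dehydrogenase, had 11.7, 42.4 and 49.6 against 6.98, 4.09 and 6.83. In these 2 genes smt0 A was again the lowest wild-type library, but the groups did not overlap. Their relative log2 fold changes were -2.88 ± 0.45 (adjusted P = 0.0017) and -2.54 ± 0.46 (adjusted P = 0.0046), and both calls held without any single library. Against the other deletions both were also lower, by -2.42 and -1.96. Without hht2Δ B or without hht2Δ C no gene passed on the spike-in scale, and 1 passed without hht2Δ A, without smt0 B or without smt0 C. The 1 gene higher was prl15, a noncoding RNA with 0, 1 and 0 reads in smt0 and 13, 24 and 11 in hht2Δ. It lies within 100 kb of hht2, a region taken up below. Its ratio was 48.4, with a 95% interval of 8.28 to 1950 that covers counting error only, and its fold change against the other deletions was 0.45 (adjusted P = 0.57).

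With hht2 removed, the other H3 genes supplied nearly the whole H3 RNA pool. Hht2 had 302, 297 and 267 CPM in smt0 and 63.8, 1.58 and 2.64 in hht2Δ (log2 fold change -3.78 ± 0.73, adjusted P = 0.0057). The deletion libraries all lay below the wild type. In reads per kilobase of exon, hht2 made up 20.8% ± 0.35 (SD, n = 3) of the H3 RNA in smt0, next to 50.3% ± 0.79 for hht1 and 28.9% ± 1.1 for hht3. In hht2Δ the shares of hht2 were 5.20, 0.122 and 0.209%, and hht1 and hht3 took 60.6% ± 3.1 and 37.6% ± 0.87. The order of the 3 genes, hht1 above hht3 above hht2, was thus the same in every library.

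The level of hht1 and hht3 together was 1251, 1252 and 1153 CPM in smt0 and 1293, 1443 and 1403 in hht2Δ. The groups did not overlap, with a log2 difference of 0.18 (2-sided exact permutation test, P = 0.1, the smallest possible). The sum over all 3 H3 genes was 1553, 1549 and 1420 CPM in smt0 and 1357, 1444 and 1406 in hht2Δ, which overlapped (log2 difference -0.10, exact permutation P = 0.2). Neither gene passed the test by itself. Hht3 had a log2 fold change of 0.25 ± 0.09 (adjusted P = 0.087 in edgeR) and hht1 of 0.14 ± 0.13 (adjusted P = 0.51). Against the other deletions hht3 was higher by 0.27 (adjusted P = 0.020). These are relative levels, and per spike-in the median core histone gene had a log2 fold change of -0.20.

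**Figure D1:**
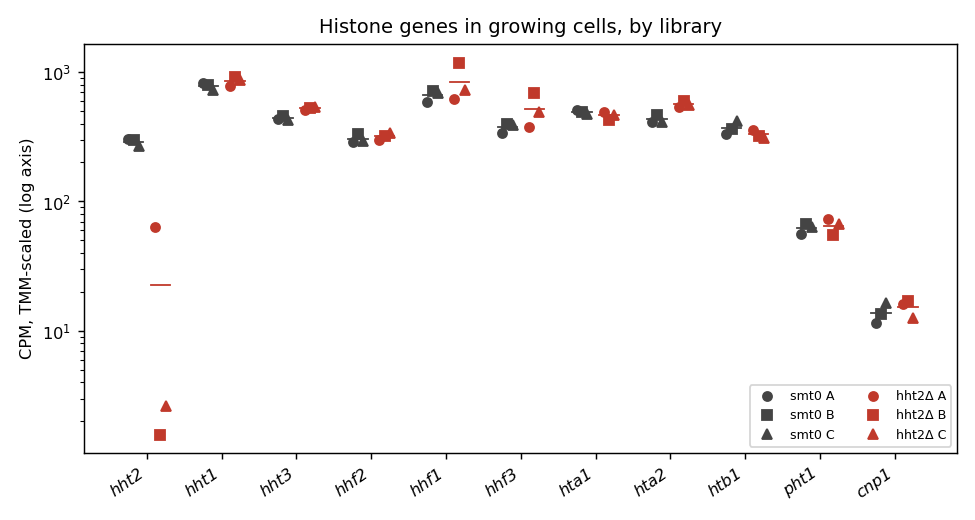
Level of the 11 histone genes in growing cells, in TMM-scaled CPM on a log axis, with 1 point per library (circles A, squares B, triangles C; grey smt0, red hht2Δ) and a bar at each group mean. Hht2 falls from 267 to 302 CPM in smt0 to 63.8 CPM in hht2Δ A and below 3 CPM in B and C, while the points of the other genes lie close together or overlap.

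H4, the partner of H3, did not pass for any gene. Hhf2, which lost its divergent neighbour, had 288, 333 and 291 CPM in smt0 and 300, 320 and 340 in hht2Δ (log2 fold change 0.07 ± 0.09, adjusted P = 0.65). The ranges overlapped, so a change beyond the library spread was not seen where the shared promoter printed above had lost one of its genes. Hhf1 and hhf3 had fold changes of 0.34 ± 0.20 and 0.48 ± 0.18 (adjusted P = 0.28 and 0.085), and in both hht2Δ B was the highest library, with 1183 CPM of hhf1 against 614 and 720 in A and C. The ratio of H3 to H4 RNA was 1.28, 1.07 and 1.04 in smt0 and 1.05, 0.657 and 0.906 in hht2Δ (exact permutation P = 0.2). Among H2A and H2B, hta2 rose, with 414, 468 and 414 CPM in smt0 and 541, 594 and 554 in hht2Δ (log2 fold change 0.38 ± 0.11, adjusted P = 0.035). This call held in 1 of the 6 fits that leave out a library. Hta1 (-0.09), htb1 (-0.17), the H2A.Z gene pht1 (0.06) and the centromeric H3 gene cnp1 (0.14) did not pass. Of the 11 histone genes 1 rose and 1, hht2, fell (9.09% each, beside 5.6% and 5.2% over all tested genes). The median was 0.14 beside 0.01 over all tested genes, and without hht2Δ A 2 rose and 1 fell.

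Genes around the deletion were checked next, because the cassette and the flanking DNA of the collection strain stay linked to it. Of the 5 nearest genes on each side only vps68, to the left of hhf2 and named for vacuolar protein sorting, passed, with 113, 132 and 124 CPM in smt0 and 139, 202 and 164 in hht2Δ (log2 fold change 0.46 ± 0.13, adjusted P = 0.035). Its groups did not overlap, and the call held in 1 of 6 fits. Within 20 kb, 2 of 18 tested genes were higher (11.1%) and 1 lower (5.56%), with a median of 0.16. Within 100 kb 10 of 97 were higher (10.3%) and 3 lower (3.09%), with a median of 0.09. Over all tested genes 5.6% were higher and 5.2% lower. Without hht2Δ A the counts were 3 and 1 within 20 kb and 13 and 6 within 100 kb. The 1 gene higher on the spike-in scale, prl15, lies within 100 kb too. It was 1 of 105 genes tested there on that scale (0.952%, beside 0.0151% over all tested genes). Whether its rise comes from DNA linked to the deletion was not tested. The nutritional marker genes ade6 (-0.21), leu1 (0.02) and ura4 (0.22), which the strains of the collection carry in mutant form, did not pass. In a list of 7 genes drawn up for P mating, none rose, and the pheromone receptor gene map3 had 12.9 to 17.3 CPM in smt0 and 18.3 to 21.0 in hht2Δ. Not every gene of that list is specific to P cells, so its counts are no clean check of the mating type. The 7 starvation markers summed to 15.8, 32.1 and 27.6 CPM in smt0 and 36.6 to 41.1 in hht2Δ, none was at 0, and 1 of the 7 rose.

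Genes of the stress response and of hexose uptake were lower in part. Of 31 core environmental stress genes 7 fell (22.6%) and 1 rose, with a median of -0.63, and of 16 hexose uptake and gluconeogenesis genes 4 fell (25%) and none rose, with a median of -0.96, beside 5.2% lower over all tested genes. Atf1, the bZIP transcription factor of the stress response, had 105, 128 and 142 CPM in smt0 and 59.1, 42.0 and 57.6 in hht2Δ. The groups did not overlap, and the log2 fold change was -1.24 ± 0.22 (adjusted P = 0.0046, held in all 6 fits). Hsp104, a disaggregase of heat-damaged proteins, had 232, 683 and 605 CPM in smt0 and 191, 118 and 203 in hht2Δ (-1.57 ± 0.37, adjusted P = 0.016). Here smt0 A lay close to the deletion libraries, and the call held in 3 of 6 fits. The aldehyde dehydrogenase gene atd1, which is in neither list, had 1283, 1219 and 1140 CPM in smt0 and 355, 340 and 517 in hht2Δ (-1.59 ± 0.34, adjusted P = 0.010), with no low library in smt0. Trx2, a thioredoxin, was the stress gene that rose (0.58 ± 0.13, adjusted P = 0.012).

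Among hexose genes, the transporter genes ght2 and ght3 did not overlap between the strains, with log2 fold changes of -1.10 ± 0.22 and -1.59 ± 0.31 (adjusted P = 0.0072 and 0.0060). Ght5, the high-affinity glucose transporter, had 137, 1029 and 917 CPM in smt0 and 259, 153 and 253 in hht2Δ, and gld1, a glycerol dehydrogenase, had 7.67, 61.2 and 78.7 against 19.8, 7.12 and 8.59. Both passed (-1.65 and -2.09, adjusted P = 0.047 and 0.023), with smt0 A within or below the range of the deletion libraries. The list counts moved with the library set. Without smt0 A, 10 stress and 9 hexose genes fell. Without hht2Δ A the counts were 8 and 6, without smt0 B or smt0 C 4 and 2, without hht2Δ B 1 and 2, and without hht2Δ C 2 and 2. Without smt0 A and hht2Δ A together they were 13 and 10. Against the 4 other deletions the median of the stress genes was 0.06, with 1 higher and 4 lower, that of the hexose genes was -0.23, with none higher and 3 lower, and hsp104 differed by 0.05 (adjusted P = 0.92).

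**Figure D2:**
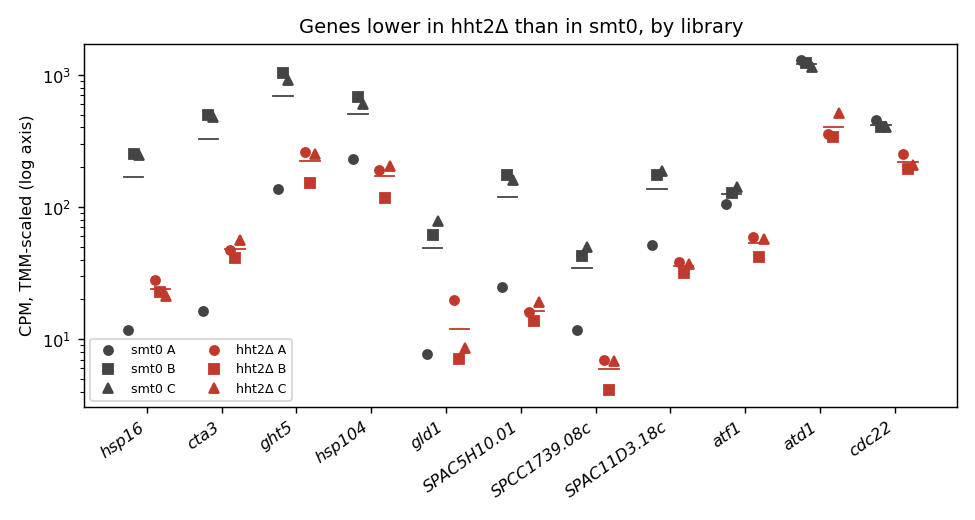
Level of 11 genes that were lower in hht2Δ, in TMM-scaled CPM on a log axis, with 1 point per library and a bar at each group mean (grey smt0, red hht2Δ; circles A, squares B, triangles C). In hsp16, cta3, ght5 and gld1 the smt0 A point sits among or below the red points, whereas in atf1, atd1 and cdc22 all 3 grey points lie above the red ones.

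Genes of the G1/S factor MBF, which turns on DNA synthesis genes, were lower in part. Of 25 tested 4 fell (16%, beside 5.2% over all tested genes) and 1 rose (4%, beside 5.6%), with a median of -0.27. Against the other deletions the counts were the same (median -0.13). Against the shared smt0 libraries 3 were lower in pht1Δ (12%, beside 11.5% over all tested genes) and 4 in iec1Δ (16%, beside 4.57%). In asp1Δ none was lower (beside 2.53%), and in arp42Δ 4 were (16%, beside 15.6%). Cdc22, the large subunit of ribonucleotide reductase, had 453, 402 and 400 CPM in smt0 and 252, 193 and 208 in hht2Δ. The groups lay far apart, and its log2 fold change was -0.94 ± 0.15 (adjusted P = 0.0017, held in all 6 fits) and -0.85 against the other deletions (adjusted P = 0.00039). Mik1, a kinase that inhibits Cdc2, and cdc18, which licenses replication origins, fell by 0.88 and 0.57, each call holding in 1 of 6 fits. Rep2, an activating subunit of MBF itself, rose by 0.61 ± 0.12 (adjusted P = 0.0079, held in all 6 fits). The count of genes lower was 4 without hht2Δ A, 2 without smt0 A and 1 without each of the other 4 libraries. Tos4, an MBF target outside the list that was chosen after its value was seen, fell from 127 to 160 CPM in smt0 to 54.8 to 74.3 in hht2Δ (-1.08 ± 0.17, adjusted P = 0.0017). Against smt0 tos4 differed by -0.73 in iec1Δ, 0.03 in pht1Δ, 0.31 in asp1Δ and -0.005 in arp42Δ. Of 26 genes of the M/G1 transition and cytokinesis 4 fell (15.4%) and none rose (median -0.38), among them plo1, the Polo kinase (-0.54 ± 0.17), myp2, a type II myosin (-0.75 ± 0.19), and klp8, a kinesin (-0.39 ± 0.12). That count was 0 without smt0 A, without smt0 C or without hht2Δ C, 1 without hht2Δ B, 3 without smt0 B and 7 without hht2Δ A.

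Genes for proteins that handle or modify histones were tested as lists too. Of 22 histone chaperones and regulators of histone genes 4 fell (18.2%, beside 5.2% over all tested genes) and none rose (median -0.24). Against the other deletions 1 was lower (median -0.10). Against the shared smt0 libraries 5 were lower in pht1Δ (22.7%), 3 in iec1Δ (13.6%), none in asp1Δ and 6 in arp42Δ (27.3%). Over all tested genes 11.5, 4.57, 2.53 and 15.6% were lower in these 4 strains. Ams2, a GATA factor needed for the S phase rise of core histone genes, had 94.6, 113 and 124 CPM in smt0 and 70.0, 75.9 and 66.5 in hht2Δ, without overlap (-0.64 ± 0.12, adjusted P = 0.0052, held in all 6 fits). The others were hip3 of the HIRA complex (-0.56), the elongation factor spt6 (-0.52) and the FACT subunit spt16 (-0.47). Without a single library this count was 6 (hht2Δ A), 5 (smt0 B) or 1 (each of the other 4).

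Of 31 genes for H3-modifying enzymes 7 fell (22.6%, beside 5.2% over all tested genes) and none rose (median -0.13). Against the other deletions 1 was higher and 3 were lower (median -0.02). Against smt0, whose libraries these comparisons share, 6 were lower in pht1Δ (19.4%), 1 in iec1Δ (3.23%), none in asp1Δ and 9 in arp42Δ (29.0%). Over all tested genes 11.5, 4.57, 2.53 and 15.6% were lower in these 4 strains. Clr4, the methyltransferase for lysine 9 of H3, had 72.3, 55.2 and 53.3 CPM in smt0 and 38.6, 26.1 and 35 in hht2Δ (-0.86 ± 0.20, adjusted P = 0.015). The libraries did not overlap, and the call held in 4 of 6 fits. Set2, the methyltransferase for lysine 36, fell by 0.52 ± 0.13 (adjusted P = 0.020, 4 of 6 fits), and hst4, a deacetylase for lysine 56, fell by 0.87 ± 0.21 (adjusted P = 0.016, 2 of 6 fits). The count for this list was 0 without smt0 A or without hht2Δ B, 2 without smt0 C or without hht2Δ C, 3 without smt0 B and 5 without hht2Δ A. Of 22 heterochromatin and RNAi genes 2 fell (9.09%, beside 5.2% over all tested genes) and none rose. They were abo1, a histone-handling ATPase (-0.60 ± 0.12, adjusted P = 0.0075, held in all 6 fits), and the Dicer gene dcr1 (-0.59 ± 0.16, adjusted P = 0.030, 1 of 6 fits).

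Gene length moved with the comparison. Of the 1002 longest protein-coding genes by exon length (2905 to 15022 bases), 155 were lower (15.5%) and 22 higher, with a median of -0.17. Of the 1008 shortest (75 to 1108 bases), 11 were lower and 51 higher, with a median of 0.10. The median exon length was 1815 bases over the 5016 tested protein-coding genes, 2903 over those lower and 1574 over those higher. Each deletion library deviated downward in the longest genes, by -0.10 (A), -0.25 (B) and -0.16 (C), while the smt0 libraries lay between -0.03 and 0.03. Growing pht1Δ and arp42Δ cells also had negative medians in these longest genes against smt0, -0.19 and -0.30, whereas iec1Δ and asp1Δ had -0.08 and 0.03. With the trend in exon length removed, 363 genes were higher and 266 lower in all, with 4 H3 modifiers, 2 chaperones and 4 MBF genes lower. What the trend with length reflects was not tested.

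**Figure D3:**
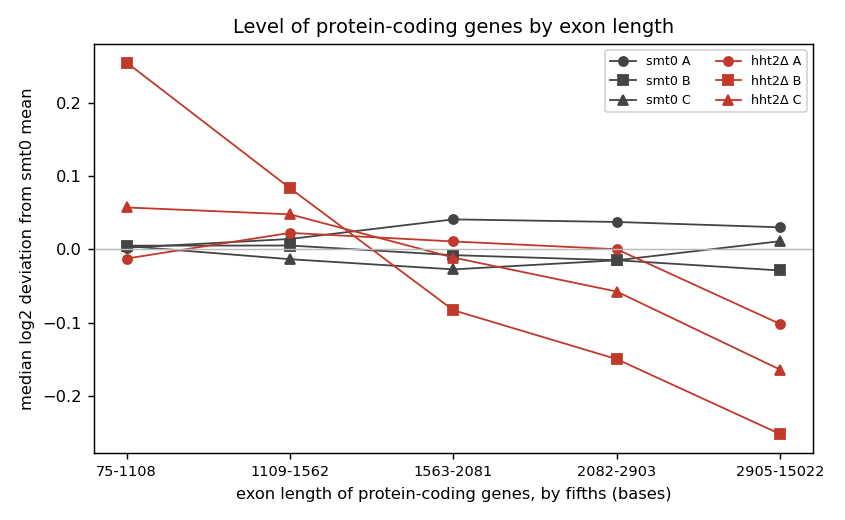
Median log2 deviation of protein-coding genes from the smt0 mean, in 5 classes of exon length in bases, with 1 line per library (grey smt0, red hht2Δ; circles A, squares B, triangles C). The smt0 lines stay within 0.05 of 0, while the hht2Δ lines drop to -0.10, -0.25 and -0.16 in the longest genes and hht2Δ B rises to 0.25 in the shortest.

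Antisense RNAs were higher as a class relative to other transcripts. Of 543 tested, 77 rose (14.2%) and 4 fell, with a median of 0.43, while protein-coding genes had 234 higher and 311 lower of 5016 (median -0.02). Antisense transcripts took 0.328, 0.380 and 0.384% of gene reads in smt0 and 0.434, 0.487 and 0.456% in hht2Δ, and the groups did not overlap. The median antisense RNA deviated from the smt0 mean by -0.04, 0.02 and 0.04 in the wild-type libraries and by 0.24, 0.40 and 0.24 in hht2Δ A, B and C. Counts from opposite strands were kept apart in the files as far as could be seen. Of 78 genes that lie wholly inside an antisense RNA and had over 100 reads in smt0 B, the antisense count was under 10% of the inner count in 51.

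Rad50-antisense-1, which lies opposite the DNA repair gene rad50 on chrI:3791897-3793891 (ASM294v2, plus strand), had 1.95, 1.66 and 1.67 CPM in smt0 and 9.11, 11.3 and 10.1 in hht2Δ. All 3 deletion libraries stood well above the wild type, with a log2 fold change of 2.53 ± 0.26 (adjusted P = 5.6e-05) against smt0 and 1.65 against the other deletions (adjusted P = 1.8e-05). Rad50 itself, named after its value was seen, fell by 0.66 ± 0.13 (adjusted P = 0.0066). SPBC19C2.10-antisense-1 had 1.5, 1.66 and 1.34 CPM in smt0 and 18.2, 14.0 and 15.9 in hht2Δ (3.38 ± 0.59, adjusted P = 0.0037), again without overlap. Psm1-antisense-1, opposite the cohesin gene psm1, rose by 2.54 ± 0.43, trm5-antisense-1 by 2.66 ± 0.46, SPCC330.13-antisense-1 by 2.46 ± 0.48 and fmc1-antisense-1 by 2.12 ± 0.30, and all of these calls held in all 6 fits. SPAC57A7.06-antisense-1 had 1, 3 and 1 reads in smt0 and 10, 21 and 7 in hht2Δ, a ratio of 7.66 (95% interval 3.01 to 24.9, counting error only). Of the 74 antisense RNAs that rose and had a tested sense gene, 4 sense genes were higher and 10 lower (median -0.13), beside 23 and 45 of all 527 such pairs (median -0.07).

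**Figure D4:**
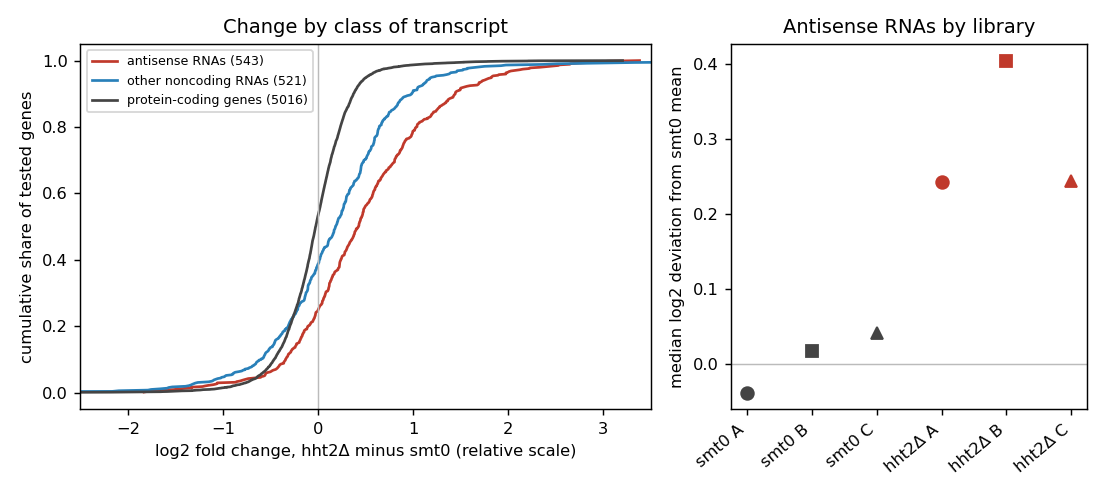
Left, cumulative share of tested genes by log2 fold change (hht2Δ minus smt0, relative scale) for 543 antisense RNAs, 521 other noncoding RNAs and protein-coding genes. Right, median log2 deviation of the antisense RNAs from the smt0 mean in each library: the 3 smt0 libraries lie between -0.04 and 0.04 and the 3 hht2Δ libraries at 0.24, 0.40 and 0.24.

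The antisense rise depended on the scale and the reference. It held on the relative scale with each library left out in turn, with medians of 0.32 to 0.46, and the counts higher were 87 without hht2Δ A, 37 without hht2Δ B, 50 without hht2Δ C, 56 without smt0 A, 36 without smt0 B and 39 without smt0 C. Of the 77, 28 passed in all 6 fits. With exon length taken out 76 rose. With spike-in scaling of the same 18 libraries, 23 rose and 13 fell (median 0.06). Most of the 674 genes called in that fit were lower, so the class still had more rises than falls where genes at large did not. In the spike-in fit of all 81 libraries, which called 1 of 6608 genes higher and 6 lower, none of 611 antisense RNAs passed (median 0.09). The median of the same class against smt0 was 0.40 in pht1Δ, 0.67 in iec1Δ, 0.12 in asp1Δ and 0.35 in arp42Δ, comparisons that share the smt0 libraries. Tested against those 4 deletions directly, hht2Δ had 65 antisense RNAs higher and 26 lower, with a median of -0.002. Of 521 other noncoding RNAs 35 rose and 10 fell (median 0.18), with 51 and 8 without hht2Δ A and 12 and 3 (median 0.0003) without hht2Δ B.

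Some genes near the left end of chromosome II rose. Of 20 tested genes in the first 100 kb 7 rose (35%, beside 5.6% over all tested genes) and none fell, with a median of 1.24. The planned windows were 200 kb at each end of chromosomes I and II. The 100 kb window was not planned and was taken at this end alone, so its share has no like value at the other ends. With spike-in scaling of the same 18 libraries 7 of 20 also rose and none fell (median 0.89). In the spike-in fit of all 81 libraries, which called 1 of 6608 genes higher, none of 29 passed (median 0.62). Of 72 in the first 200 kb 15 rose (20.8%) and 2 fell (median 0.15). SPBPB10D8.02c, a predicted arylsulfatase on chrII:83229-85631, had 26.8, 10.9 and 10.7 CPM in smt0 and 69.6, 67.6 and 68.9 in hht2Δ. The deletion libraries lay close together and above all wild-type libraries (2.10 ± 0.25, adjusted P = 0.00020). Grt1, a predicted transcription factor nearer the end, rose from 0.776 to 1.95 CPM in smt0 to 3.52 to 9.31 in hht2Δ (2.21 ± 0.41), and pfl7, a flocculin just past 100 kb, from 0.501 to 3.01 to 5.04 to 8.04 (2.27 ± 0.43). The noncoding RNA SPNCRNA.293, which overlaps the start of pfl7 on the other strand, had 1.05, 0.443 and 0.334 CPM in smt0 and 3.49, 8.57 and 6.27 in hht2Δ (3.33 ± 0.38, adjusted P = 0.00020). All 4 calls held in all 6 fits. The count for the first 100 kb was 4 without hht2Δ B, 5 without hht2Δ C, smt0 B or smt0 C, 7 without hht2Δ A and 8 without smt0 A.

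**Figure D5:**
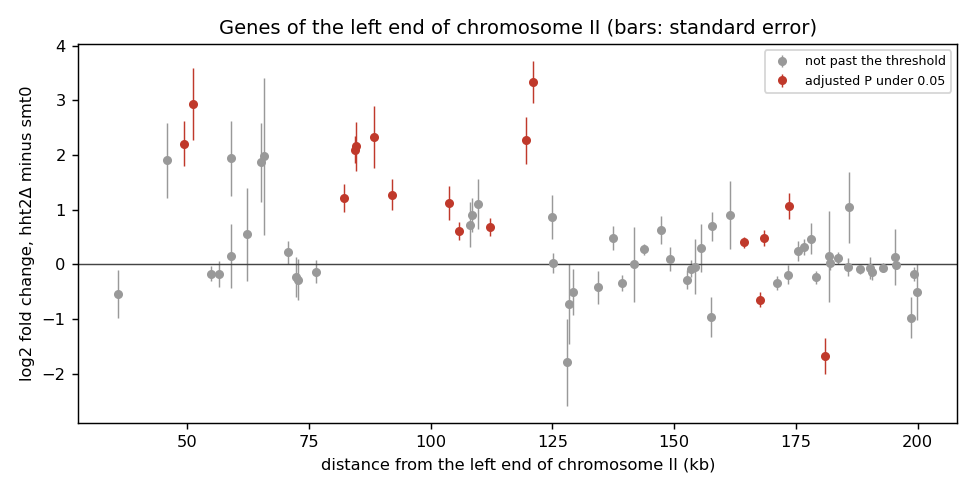
Log2 fold change (hht2Δ minus smt0, relative scale, bars give the standard error) of the genes in the first 200 kb of chromosome II, by distance from the left end in kb; red points passed the test and grey points did not. Up to 125 kb the red points all lie above 0, up to 3.33 for SPNCRNA.293, and past 125 kb red points lie on both sides of 0.

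The unplaced contig AB325691 behaved alike, with 4 of 5 genes higher (80%, beside 5.6% over all tested genes). SPBC460.05, the gene with the largest change there, had 31.0, 15.4 and 12.5 CPM in smt0 and 106, 82.0 and 73.2 in hht2Δ (2.15 ± 0.31, adjusted P = 0.0013), without overlap. SPBC460.04c, vba2 and SPBC460.02c rose by 2.08, 0.79 and 0.44. The count was 1 without smt0 C, 2 without hht2Δ B and 3 or 4 without each of the other libraries. At the other ends 8 of 83 were higher (9.64%) and 6 lower (7.23%) in the first 200 kb of chromosome I. The counts were 7 of 82 (8.54%) and 3 (3.66%) in its last 200 kb. They were 7 of 67 (10.4%) and none in the last 200 kb of chromosome II. Over all tested genes 5.6% were higher and 5.2% lower. Without hht2Δ A the counts at these ends were 10 and 7, 8 and 8, and 8 and 1. In these regions SPAC869.01, with 1.20, 0.998 and 2.34 CPM in smt0 and 14.5, 11.5 and 9.80 in hht2Δ, rose by 3.01 ± 0.77 (adjusted P = 0.021, 2 of 6 fits). Against the other deletions, 3 of the 20 genes in the first 100 kb were higher and 2 lower (median -0.07), and SPBPB10D8.02c differed by 0.12 (adjusted P = 0.68). The genes called higher in the first 100 kb against smt0 numbered 10 in pht1Δ (50%), 7 in iec1Δ (35%), 4 in asp1Δ (20%) and 9 in arp42Δ (45%), with the smt0 libraries shared. Over all tested genes 9.51% were higher in pht1Δ, 6.94% in iec1Δ, 3.01% in asp1Δ and 16.8% in arp42Δ.

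A few genes set hht2Δ apart from the other deletions as well as from the wild type. Tf2-11, a copy of the Tf2 retrotransposon on chrII:4414657-4418658, had 17.0, 13.1 and 14.5 CPM in smt0 and 51.4, 57.9 and 44.4 in hht2Δ. No library of the wild type came near those of the deletion, with log2 fold changes of 1.79 ± 0.18 against smt0 (adjusted P = 5.6e-05) and 2.06 against the other deletions (adjusted P = 3.5e-08), both in edgeR. The mean levels in the other deletions were 8.7 to 19.0 CPM. Of 13 Tf2 copies 5 could be tested, and only Tf2-11 rose (2 copies did without hht2Δ A). The copies are nearly identical, and how reads that fit several of them were counted is not given in the sources used here, so the assignment to 1 copy is uncertain.

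SPBC119.03 had 66.2, 69.8 and 73.7 CPM in smt0 and 121, 131 and 136 in hht2Δ (0.89 ± 0.20 against smt0, 1.87 against the other deletions). SPBP8B7.32 rose by 0.62 and 1.38 in the same 2 comparisons, dus1, a tRNA dihydrouridine synthase, by 1.02 and 1.12, and SPAC186.05c by 1.58 and 3.36. For SPAC186.05c the mean level in arp42Δ was 0.0 CPM, which enters the second value. The transcripts lower in both were SPAC11D3.04c (-0.59 and -1.01), the noncoding RNAs SPNCRNA.1626 (-1.32 and -1.50) and SPNCRNA.111 (-0.64 and -1.10), SPAC3H1.06c (-0.42 and -1.07) and the glycine tRNA SPBTRNAGLY.03 (-1.67 and -2.23). SPNCRNA.1626 lies opposite SPBP8B7.32 over part of its length, with 290, 220 and 217 CPM in smt0 and 117, 87.1 and 87.4 in hht2Δ, so at this locus 1 strand was lower while the other was higher. SPAC2E1P3.05c was lower against the other deletions by 1.19 on the log2 scale and had -0.48 against smt0 (adjusted P = 0.085). The 2 comparisons share the hht2Δ libraries. Of 118 tRNA genes none rose and 2 fell against smt0, with a median of 0.08 (4 and 2 without hht2Δ A). Against the other deletions 1 was higher (0.847%, beside 8.24% over all tested genes) and 23 lower (19.5%, beside 6.06%, median -0.59). Those deletions were themselves above smt0 in part, with 19 tRNA genes higher in pht1Δ (16.1%), none in iec1Δ, 26 in asp1Δ (22.0%) and 55 in arp42Δ (46.6%). Over all tested genes 9.51% were higher in pht1Δ, 6.94% in iec1Δ, 3.01% in asp1Δ and 16.8% in arp42Δ.

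Nitrogen starvation and M mating genes changed in part. Of 28, 5 rose (17.9%, beside 5.6% over all tested genes) and 1 fell (median 0.04), with 5 and 2 without hht2Δ A. Against the other deletions none was higher (beside 8.24% over all tested genes) and 11 were lower (39.3%, beside 6.06%). Several of those deletions were themselves above smt0, with 15 of 28 higher in pht1Δ (53.6%) and 19 in arp42Δ (67.9%, medians 0.60 and 0.93). In iec1Δ 4 were higher (14.3%) and in asp1Δ 2 (7.14%, medians 0.32 and 0.12). Over all tested genes 9.51% were higher in pht1Δ, 16.8% in arp42Δ, 6.94% in iec1Δ and 3.01% in asp1Δ. Mam2, the receptor for the pheromone of P cells, had 21.4, 26.3 and 20.7 CPM in smt0 and 42.9, 60.4 and 54.6 in hht2Δ (1.21 ± 0.17, adjusted P = 0.0013). The groups did not overlap and the call held in all 6 fits, as it did for the M factor gene mfm1 (1.61 ± 0.31). Against the other deletions mam2 and mfm1 differed by -0.21 and 0.51 and did not pass. Gln1, glutamine synthetase, rose by 0.73 ± 0.18, and isp4, an oligopeptide transporter, fell by 0.92 ± 0.20. In the list of 7 drawn up for P mating 1 fell, ste20, a subunit of the TORC2 kinase complex (-0.54 ± 0.11, adjusted P = 0.0083). That list is not specific to P cells, and its member byr1 is also among the M mating genes.

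The remaining lists gave small numbers of calls, to be read beside 5.6% higher and 5.2% lower over all tested genes. None of 138 cytosolic ribosomal protein genes passed (median 0.06, smallest adjusted P = 0.079 in edgeR, rps3001), and 9 were higher without hht2Δ A (median -0.06). Elsewhere 1 gene rose (6.67%) and 2 fell (13.3%) of 15 flocculation genes, and 1 fell (11.1%) of 9 phosphate genes (asp1, -0.64). Of 16 iron and copper uptake genes 1 fell (6.25%, sib1, -0.53). Among 18 purine, leucine and pyrimidine synthesis genes 1 fell (5.56%, ura1, -0.60). Among 17 Ino80 complex genes 1 rose and 1 fell (5.88% each, ies2, 0.42, and ino80, -0.47). Without hht2Δ A the counts higher and lower were 1 and 3, none and 1, 1 and 1, 1 and 1, and 2 and 2 for these lists. Of 38 mitochondrial genes 1 rose (median 0.29), against 4 without hht2Δ A, and of 34 small nuclear and nucleolar RNAs 1 rose, snR88 (1.11 ± 0.35, adjusted P = 0.047), for which hht2Δ B had 17.5 CPM against 5.43 and 6.27 in A and C.

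Few of the genes called in growing cells were called at T1D or T1W, and more were called at T2W, in both directions. At T1D, 50 of 6484 genes were higher (0.771%) and 4 lower (0.0617%) in hht2Δ than in smt0. At T1W, 52 of 6427 were higher (0.809%) and 11 lower (0.171%), and at T2W, 1137 of 6503 were higher (17.5%) and 885 lower (13.6%). Of the genes higher at T0, 3 of 351 were again higher at T1D, 3 of 347 at T1W and 78 of 351 at T2W, where 37 were lower. Of the 327 genes lower at T0, hht2 alone was lower at T1D, hht2 and 2 more at T1W, and 46 at T2W, where 56 were higher. With only the 6 libraries of a time in the fit, 34, 7 and 3 genes passed at T1D, T1W and T2W. The difference between times was not tested.

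The spore wall gene isp3, named after its values were seen, was the one gene other than hht2 to differ in one direction at all 4 times. In growing cells it had 20, 32 and 17 reads in smt0 and 43, 51 and 58 in hht2Δ (log2 fold change 1.17 ± 0.29, adjusted P = 0.019). This call held in 4 of 6 fits, with adjusted P = 0.073 without smt0 C and 0.057 without hht2Δ B. At T1D it had 17, 41 and 13 reads in smt0 and 6800, 7254 and 2847 in hht2Δ, at T1W 13, 4 and 9 against 1065, 1723 and 1023, and at T2W 6, 1 and 0 against 1918, 731 and 976. The groups were disjoint at each time, with log2 fold changes of 7.94, 7.22 and 8.35 at the starved times (adjusted P = 1.3e-08, 6.8e-10 and 1.4e-06, edgeR). In the 4 other deletions isp3 had 19 to 58 reads at T0 and 45 to 245 at T1D. Antisense RNAs at T1D, T1W and T2W were higher for 2 of 598, 14 of 570 and 229 of 591 tested, and 15 of 28 genes in the first 100 kb of chromosome II were higher at T2W.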

How the data were processed

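Total RNA depleted of ribosomal RNA was sequenced as stranded paired reads of 58 cycles from each end. The authors aligned reads with STAR 2.7.9a to build ASM294v2 and deposited raw featureCounts 1.5.1 counts per gene and ERCC control, with 7014 genes and 92 controls. The counting's strand setting and its treatment of multi-mapped reads are not given in the sources used here. Columns of the authors' own comparisons were not used, and 0 columns lacked a sample.

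Genes above 1 CPM in at least 3 fitted libraries were tested with edgeR 4.0.16 (R 4.3.3), quasi-likelihood, Benjamini-Hochberg adjustment over all tested genes, threshold 0.05. The spike-in fit used ERCC totals with TMM factors over all 81 libraries in 27 groups, with the second-batch ies2 libraries shifted to the first batch's level. The relative fit used TMM factors of gene counts over 18 growing libraries, and over 18 libraries at each later time. DESeq2 1.42.0, other filters, scalings and library sets were alternatives. Both fits were tested on simulated data.

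Named genes were all spike-in calls, the 12 largest rises and falls without overlap and with a mean of at least 10 counts in the higher group, histones, the 5 neighbours on each side, ade6, leu1 and ura4, up to 4 per list by adjusted P, and 6 each way against the other deletions. The comparison and lists were chosen with earlier results of these data known. Intervals cover counting error only. Sequences are from RefSeq ASM294v3, and gene coordinates are from the files. Some items are not reported here.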

Additional observations from a re-analysis of the deposited data

Results flagged for a closer look

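Mat2-Pc, the silent P mating-type cassette gene on the mating region contig, had too few reads to pass the filter of the relative comparison. It had 0 reads in each smt0 library of growing cells and 8, 8 and 3 in hht2Δ, 19 in all. Scaled to library size this is at least 6.38-fold higher, taking 3 counts over the wild-type group as the limit that a count of 0 allows. That limit takes the 19 reads of hht2Δ as exact and leaves out their counting error. The 12 libraries of the other deletions had 0 or 1 reads. Smt0 also had 0 reads at T1D, T1W and T2W, where hht2Δ had 14, 8 and 3, then 5, 5 and 0, then 2, 0 and 4. The other deletions had 0 or 1 reads at T1D, 0 at T1W and 0 to 3 at T2W, where asp1Δ had 1, 0 and 3. How multi-mapped reads were counted is not given in the sources used here. Whether the mat2-Pc reads come from the silent cassette was not tested. The expressed M gene mat1-Mc had 1 or 2 reads in every smt0 and hht2Δ library at T0. In edgeR's quasi-likelihood test mat2-Pc did not pass on the spike-in scale (adjusted P = 0.38). It passed in the relative comparison with all 81 libraries (adjusted P = 0.035) and with no filter on low counts (adjusted P = 0.031). The gene was picked among untested genes for 0 reads in smt0 and at least 3 in each hht2Δ library at T0. These P values rest on the counts that picked it, so they are no independent support.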

How the results depend on the processing

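The spike-in count of 7 genes depended most on the fit. It was 674 (53 higher and 621 lower) with only the 18 growing libraries, 2535 (102 higher) with the 6 libraries compared, 795 (53 higher) with DESeq2 on the 18, and 307 (136 and 171) with TMM factors of gene counts in all 81 libraries. Without single libraries it was 0 to 6. In the fits with 0 calls (edgeR, without hht2Δ B and without hht2Δ C), 86 and 102 genes had an unadjusted P below 0.05. The relative count of 679 was 323 with the 6 libraries and 307 with all 81, 674 with spike-in scaling (53 higher and 621 lower, against 352 and 327), 916 with DESeq2, and 166 to 1018 without single libraries. The 899 genes against the other deletions became 407 to 1106 without single hht2Δ libraries. With the 6 libraries of each later time, the 54, 63 and 2022 genes at T1D, T1W and T2W became 34, 7 and 3. The cause of these changes was not tested. The level difference of -0.36 lay between -0.45 and -0.28 in its alternatives and between -0.40 and -0.30 without single libraries.

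Among named genes past the threshold the sign changed for 2, sib1 (0.087 with the trend in exon length removed) and gmh6 (-0.034 with spike-in scaling of the 18 libraries). Over the alternatives, 35 values of named genes that did not pass also changed sign. With the replicate letter as a block, counts were 7, 650 and 887. Deviations of libraries that share a letter correlated at -0.003, -0.09 and -0.06, so the letters did not pair the samples, and not every library correlated best with its own letter. With 3 libraries a strain, the exact permutation test of the level cannot reach 0.05, and genes of a few reads carry wide intervals. The alternatives with exon length removed, without hht2Δ A and smt0 A together, and of the level without structural RNAs were chosen after seeing the data. The 100 kb window at the left end of chromosome II and the contig AB325691 were not among the planned lists.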
